A study of Mus musculus with 12 samples.

Results

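The neurotrophins and their receptors were followed here through 8 mouse genes: the growth factor genes Bdnf, Ntf3, and Gdnf, the receptor genes Ntrk2, Ntrk3, and Ngfr, and the neurotrophin-responsive genes Vgf and Nrn1. They were chosen by name, and every array probe whose transcript accession belongs to one of these symbols was used, which gave 13 probes of 39429 and 8 genes of 20868. Each probe is an oligonucleotide on a one-colour Agilent array, and its brightness reports the amount of the transcript. Each of the 12 arrays carried RNA pooled from 3 animals and stood alone for its condition, so that the spread between animals of a condition could not be measured, and no test was run.

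Neurotrophins are secreted proteins that keep neurons alive and adjust their synapses. Each is cut from a longer precursor. The mature factors signal through the Trk tyrosine kinases, with BDNF and NT-4 acting on TrkB and NT-3 mainly on TrkC, whereas the p75 receptor binds all neurotrophins and is also a receptor for the uncut precursors. Ntrk2 and Ntrk3 also give rise to truncated receptors without a kinase, and the truncated TrkB form is abundant in astrocytes. In the adult hippocampus, Bdnf, Vgf, and Nrn1 are known as genes that respond to neuronal activity. GDNF belongs to another family of factors and signals through Ret and its GFRα coreceptors.

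The arrays formed 3 sets. The aged cortex set held C57BL/6 mice of 1.5, 4, 17, and 22 months, with the tissue labelled as prefrontal cortex. The transgenic hippocampus set held C57BL/6 mice with a mutated human NCSTN gene (10 months), mice with a wild-type human MAPT gene (12 months), and 5×FAD mice, which carry mutated human transgenes of familial Alzheimer's disease (6 months). The ICR hippocampus set held 7-week-old males that had received an injection. Into the cerebral ventricles, 14 days before, went 5 or 10 μM Aβ, or else streptozotocin at 2.5 mg/kg on one array and 3 mg/kg on another. Scopolamine at 1 mg/kg went into the peritoneum 30 min before. No untreated or wild-type control array of the hippocampus was analysed here, and the cortex set, without transgene or injection, compares ages only. The value of an array is therefore described by its distance from the average of the remaining arrays in the same set. This distance is called the log2 ratio, and it is coupled within a set because an array that is low makes the rest look high.

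Some properties of the arrays bear on all results. The methods describe the mice as male, but the transgenic arrays went against this: Xist, the RNA of the inactive X chromosome, was well above background on 3 of 3 transgenic arrays and on none of the other 9, while the Y-linked genes Ddx3y and Eif2s3y were well above background on all of those 9 and on none of the 3. The transgenic set therefore differs from the other sets in sex as well as in age and genotype. The neocortex marker list (11 genes) had a summed log2 signal of 13.76 to 14.01 in the cortex and 12.19 to 12.89 in the hippocampus, and the dentate granule neuron list (8 genes) had 12.13 to 12.48 in the cortex and 12.88 to 13.48 in the hippocampus, as the labels imply. Tissue beside the brain differed between arrays. The choroid plexus list (9 genes) reached 15.63 at 17 months against 8.83 to 9.29 at the other ages, and it was 11.80 and 12.49 on the streptozotocin arrays against 17.53 to 17.62 on the other ICR arrays. The pituitary list (5 genes) was 12.51 on the MAPT array against 8.86 and 8.87 on the other transgenic arrays.

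Signals are given as log2 of the scanner's processed signal after quantile normalization over the 12 arrays. "Well above background" is the scanner's own flag. Of the 13 probes, 12 carried this flag on every array, and the exception was the Gdnf probe. A gene counted as measured in a set if it had the flag on at least 1 array of the set, and a log2 ratio of at least 1 in size, a 2-fold difference, was counted as a call. For 399 probes printed 8 or more times on each array, the median SD between spots was 0.057 to 0.073 log2 units, which covers the array surface but not the animals.

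Few values of the 8 genes passed 2-fold. In the cortex, 2 of 28 pairs of gene and array (7.14%) passed 2-fold, against 3.55% of pairs over all genes. These were Ntf3 at 22 months and Ngfr at 1.5 months. In the transgenic hippocampus, 0 of 24 pairs passed against 7.7% over all genes, and in the ICR hippocampus 0 of 35 pairs against 5.43%. These shares over all genes include dim genes, as described for the pathway lists below. The transgenic count of 0 depends on the processing, since 1 pair passed with normexp background correction (Vgf on 5×FAD), and 1 passed with scaling to the 75th percentile or in the authors' own values (Gdnf on 5×FAD). When the set was cut to a pair of arrays, 2 pairs passed without NCSTN (Gdnf) and 2 without MAPT (Vgf). In such a cut set, the 2 log2 ratios of a gene mirror each other, so that each count is 1 difference seen from both sides. Gdnf was not well above background on MAPT. The cortex count was 1 without the 1.5-month array and 0 without the 22-month array.

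**Figure D1:**
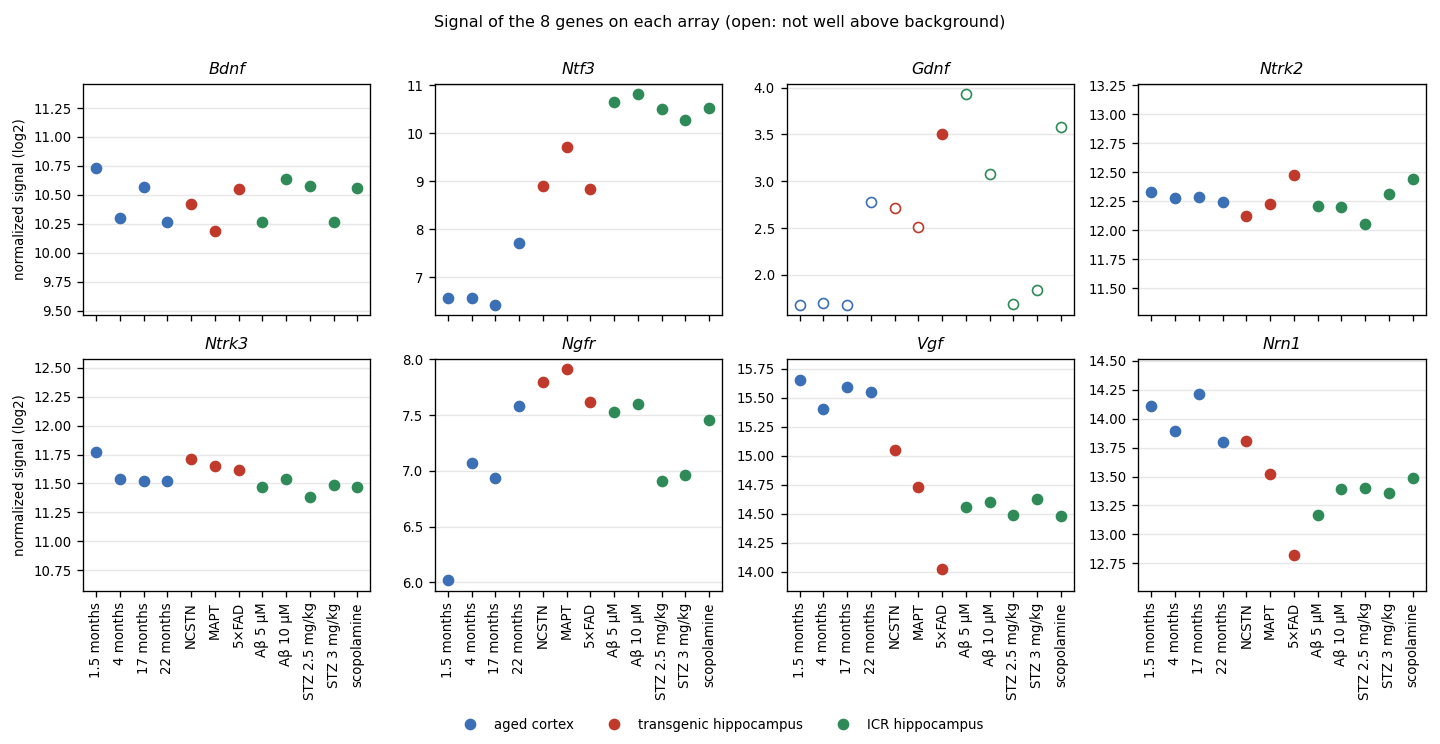
Normalized log2 signal of each of the 8 genes (y axis) on each of the 12 arrays (x axis), coloured by set, with 1 point for each array and open points where no probe was well above background. Ntf3 lies between 6.42 and 7.72 in the cortex and between 8.84 and 10.81 in the hippocampus, Vgf and Nrn1 are lowest on 5×FAD, and Bdnf stays between 10.19 and 10.73 throughout. Vertical scales differ between panels and span at least 2 log2 units.

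Among the ligands, Bdnf (chromosome 2, 109674700 to 109727043, assembly GRCm38.p6), the main neurotrophin of the adult forebrain, had nearly the same signal everywhere. Its log2 signal was 10.73, 10.30, 10.57, and 10.27 at 1.5, 4, 17, and 22 months. It was 10.42 on NCSTN, 10.19 on MAPT, and 10.55 on 5×FAD. Across the ICR arrays, it was 10.27 and 10.64 with 5 and 10 μM Aβ, 10.58 and 10.27 with 2.5 and 3 mg/kg streptozotocin, and 10.56 with scopolamine. The 3 sets overlapped, and the mean of the 4 cortex arrays (10.47) was 1.02-fold that of the 8 hippocampus arrays (10.43). The widest difference within a set was 1.38-fold, between 1.5 and 22 months in the cortex, and for both Aβ and streptozotocin the lower and the higher dose lay on opposite sides of the average of the other ICR arrays. Bdnf had 1 probe, so that transcripts from its several promoters could not be followed separately.

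Ntf3 encodes NT-3, which in the adult brain is known mainly from the hippocampus and its dentate granule neurons. The gene (chromosome 6, 126101412 to 126166772) had the widest difference between sets of the 7 genes well above background on all arrays. Its log2 signal was 6.56, 6.56, 6.42, and 7.72 at 1.5, 4, 17, and 22 months. On the transgenic arrays, it was 8.89 on NCSTN, 9.72 on MAPT, and 8.84 on 5×FAD. On the ICR arrays, it was 10.64 and 10.81 with 5 and 10 μM Aβ, 10.50 and 10.28 with 2.5 and 3 mg/kg streptozotocin, and 10.52 with scopolamine. All 4 cortex arrays thus lay below all 8 hippocampus arrays, with means of 6.81 and 10.02, a 9.26-fold difference. This order was kept with 75th percentile scaling and with normexp, where the log2 difference of −3.21 was −3.31 and −2.50. Over all genes, 8.75% had the cortex arrays below the hippocampus arrays without overlap. Against the transgenic hippocampus alone, which shares the C57BL/6 strain with the cortex, the difference in means was 5.05-fold. Besides tissue, the cortex differs from the transgenic set in sex and genotype and from the ICR set in strain and injection. These cannot be told apart, here or for the other genes compared between cortex and hippocampus.

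The hippocampus itself was divided for Ntf3. All 5 ICR arrays lay above the 3 transgenic arrays, with means of 10.55 and 9.15 (2.64-fold), and 12.8% of all genes did so. Strain, age, sex, genotype, and injection differ together between these sets and cannot be told apart. The dentate granule list, with 13.03 to 13.48 on ICR and 12.88 to 13.28 on transgenic arrays, overlapped between them.

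Within the cortex, Ntf3 stood out at 22 months. The log2 ratio to the younger ages was 1.21 (2.31-fold higher), and 1.53% of all genes were at least 2-fold higher on this array. The difference from each younger age was 2.24-fold, 2.24-fold, and 2.47-fold, whereas the 3 younger ages lay within 1.10-fold of each other. On the same array, the dentate granule list was at 12.31, inside the range of the other ages (12.13 to 12.48), and the neocortex list was at 13.76, the lowest of the 4. The pituitary gene Gh was well above background at 22 months (6.16) and not at the other ages (1.71 to 1.74), and the summed pituitary list was at 9.24 against 8.78 to 9.21. Its part in the Ntf3 value was not tested. The log2 ratio was between 0.72 and 1.25 over the other settings, and the lowest value, under 2-fold, came from normexp. On MAPT, Ntf3 had a log2 ratio of 0.85 and was 1.78-fold above NCSTN and 1.83-fold above 5×FAD. The MAPT array is the one with the high pituitary list, whose part in this value was not tested.

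Gdnf (chromosome 15, 7810048 to 7837580), the founding factor of its family, was close to the detection limit. Its probe was well above background only on 5×FAD, at a log2 signal of 3.51, with measured values of 2.71 on NCSTN and 2.51 on MAPT. The lowest signal that was well above background was 3.61 on NCSTN and 3.22 on MAPT, so that no difference of 5×FAD from NCSTN could be bounded. The log2 ratio of 0.91 ranged from 0.08 to 1.23 over the settings. On the cortex arrays (1.68 to 2.78) and the ICR arrays (1.69 to 3.93) the probe was not well above background, and these values have no order.

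**Figure D2:**
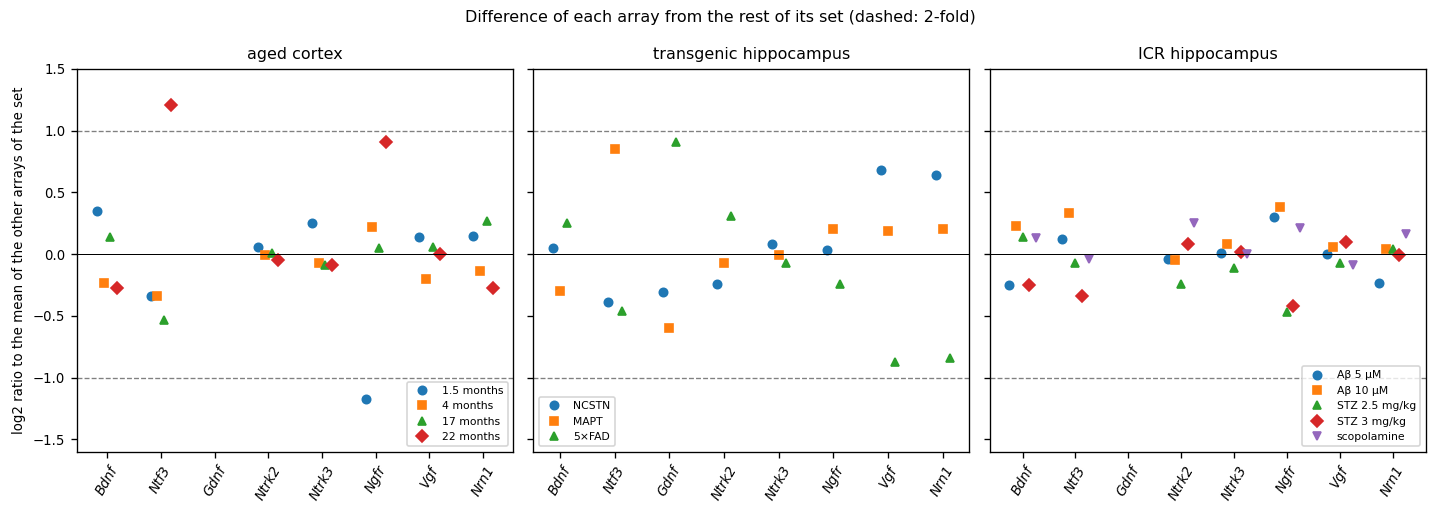
Log2 ratio of each array to the average of its remaining set (y axis) for the 8 genes (x axis), with 1 marker for each array and dashed lines at 2-fold. Only Ntf3 at 22 months (1.21) and Ngfr at 1.5 months (−1.17) lie outside the dashed lines, and Gdnf is left out where no array had it well above background.

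Among the receptors, the gene means of Ntrk2 and Ntrk3 hid differences between their probes. Ntrk2 (chromosome 13, 58806472 to 59133970), the TrkB gene, had gene means between 12.05 and 12.48 on all 12 arrays. Its 3 probes did not move together. Probe A_51_P393454, annotated to transcript NM_001025074 and printed 10 times on each array, was at 12.80, 12.92, 12.82, and 12.70 at 1.5, 4, 17, and 22 months, at 12.11 on NCSTN, 12.32 on MAPT, and 11.86 on 5×FAD, and at 11.74 to 12.20 on the ICR arrays. The cortex therefore lay above the hippocampus on this probe. Probe A_65_P04961, annotated to NM_008745, gave the opposite order, with 10.98 to 11.17 in the cortex and 11.25 to 11.76 in the hippocampus. Probe A_55_P2006792, annotated to NM_001025074 as well, was at 12.94 to 13.00 in the cortex and overlapped with the hippocampus (12.97 to 13.88). For comparison, the gene means of 9.98% of all genes lay higher in the cortex than in the hippocampus without overlap, and 8.75% lay lower. Such shares were not computed over single probes.

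The 5×FAD array divided the same probes. The log2 ratio was −0.36 on A_51_P393454, 0.83 on A_55_P2006792, and 0.45 on A_65_P04961, so that the gene mean (0.31) lay between a lower and a pair of higher probes. These signs were kept under 75th percentile scaling, quantile normalization within the set, normexp, and in the authors' values, where the probes gave −0.38 to −0.28, 0.73 to 0.81, and 0.40 to 0.51. The spots of A_51_P393454 did not overlap between the transgenic arrays, with 11.81 to 11.93 on 5×FAD, 12.03 to 12.19 on NCSTN, and 12.29 to 12.36 on MAPT. Astrocyte markers were higher on the same array: the summed astrocyte list (7 genes) was at 18.15 against 17.82 and 17.83, with 6 of 7 log2 ratios above 0, and Gfap (1.80) and Aqp4 (1.19) past 2-fold. The part of astrocyte content in the probe values was not tested, and the files do not show which exons each probe matches.

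**Figure D3:**
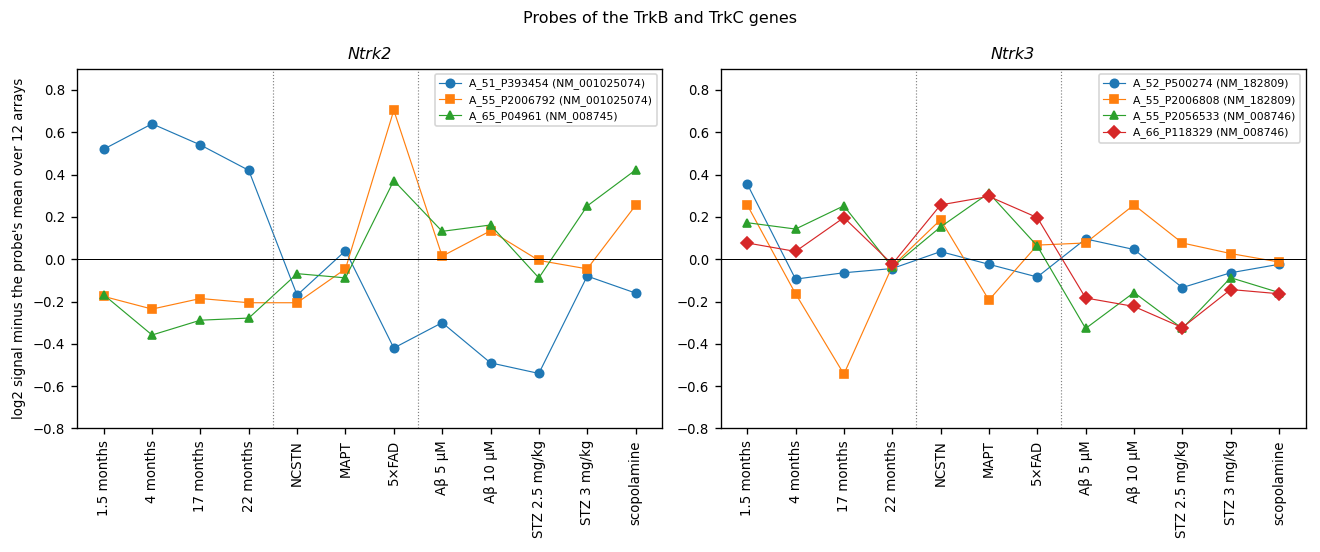
Log2 signal of each probe of Ntrk2 (left) and Ntrk3 (right) minus that probe's own mean over the 12 arrays (y axis), by array (x axis), with 1 line for each probe and dotted lines between the 3 sets. On Ntrk2, probe A_51_P393454 is high in the cortex and low on 5×FAD where the other 2 probes are high. On Ntrk3, both NM_008746 probes are lower on the ICR arrays than on the C57BL/6 arrays.

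Ntrk3 (chromosome 7, 78179986 to 78581034), the TrkC gene, had gene means between 11.38 and 11.77. Its pair of NM_008746 probes separated the ICR from the C57BL/6 arrays. These groups also differ in injection, the cortex arrays differ from ICR in tissue, and the transgenic arrays differ in sex and genotype. Most C57BL/6 arrays came from older mice, but the 1.5-month cortex was near the 7 weeks of the ICR mice. Strain and these other differences cannot be told apart. A_66_P118329 was at 12.58 to 12.76 on the 5 ICR arrays and at 12.88 to 13.20 on the 7 C57BL/6 arrays. A_55_P2056533 was at 9.98 to 10.22 on ICR and at 10.27 to 10.62 on C57BL/6. The pair of NM_182809 probes overlapped between these groups, at 11.47 to 11.70 against 11.51 to 11.96 and at 11.40 to 11.67 against 10.87 to 11.67. For comparison, the gene means of 5.58% of all genes lay lower on ICR than on C57BL/6 without overlap. The order of both NM_008746 probes was kept with 75th percentile scaling and with normexp. In the cortex, Ntrk3 was highest at 1.5 months (11.77 against 11.52 to 11.54), where A_52_P500274 read 11.96 against 11.51 to 11.56 at the later ages.

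Ngfr (chromosome 11, 95568818 to 95587698) encodes p75, which in the adult forebrain is best known from basal forebrain cholinergic neurons. Its log2 signal was 6.02, 7.07, 6.94, and 7.58 at 1.5, 4, 17, and 22 months. On the transgenic arrays, it was 7.80 on NCSTN, 7.91 on MAPT, and 7.62 on 5×FAD. On the ICR arrays, it was 7.53 and 7.60 with 5 and 10 μM Aβ, 6.91 and 6.96 with 2.5 and 3 mg/kg streptozotocin, and 7.46 with scopolamine. The 1.5-month cortex was the lowest of all 12 arrays and the 22-month cortex the highest of the 4 ages, 2.95-fold apart.

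The low value at 1.5 months was a log2 ratio of −1.17 (2.25-fold lower), and 2.48% of all genes were at least 2-fold lower on this array. The probe was printed 10 times, and its spots at 1.5 months (5.82 to 6.22) lay below every spot of the other ages (from 6.80). At 22 months the log2 ratio was 0.91. Normexp gave smaller values, −0.64 at 1.5 months and 0.55 at 22 months, in the same directions. The meninges and vascular list (9 genes) was highest at 1.5 months (14.43 against 13.64 to 14.26), opposite to Ngfr, and the basal forebrain cholinergic list (5 genes) was at 8.56 at 1.5 months and 8.75 at 22 months, with 8.34 and 8.59 at the ages between them.

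In the ICR hippocampus, both streptozotocin arrays had less Ngfr than the other 3, at log2 ratios of −0.47 and −0.42. Their highest spot (7.18) lay below the lowest spot of the other ICR arrays (7.39). In all, 15.9% of genes had both streptozotocin arrays below the other ICR arrays without overlap, so that this order is common on these arrays. The choroid plexus list was lower on the same arrays, as given above, and the meninges and vascular list was at 12.77 and 14.46 with 2.5 and 3 mg/kg streptozotocin against 14.72 to 16.01 on the others. The part of these tissues in the Ngfr values was not tested, and in pooled tissue fewer cells of a type and less RNA in each cell cannot be told apart. In the authors' own values, the streptozotocin arrays overlapped with the others for Ngfr. There, the log2 ratio with 2.5 mg/kg streptozotocin was −0.03, on an array whose median over all genes was 0.25.

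**Figure D4:**
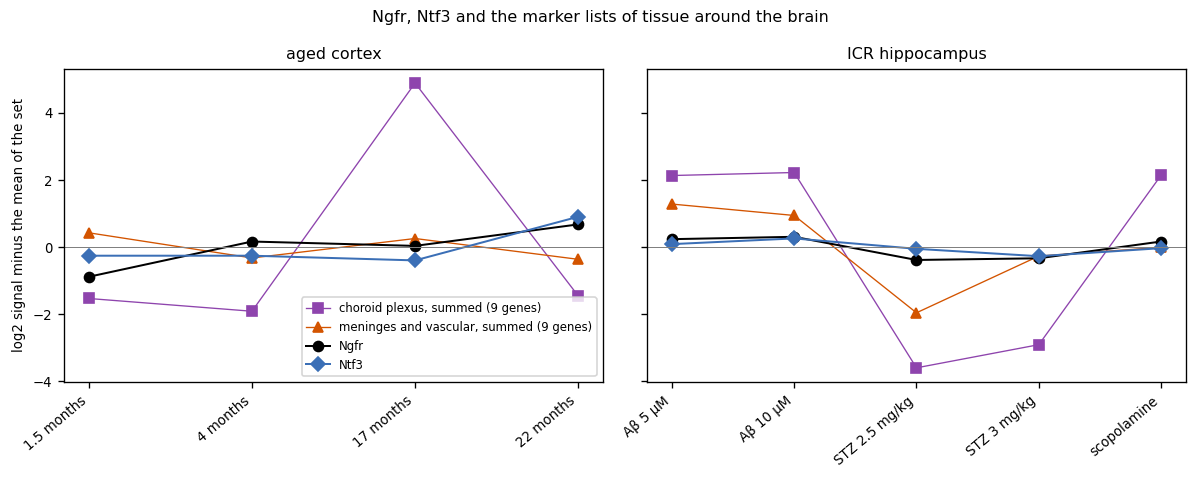
Log2 signal minus the mean of the set (y axis) for Ngfr, Ntf3, and the summed choroid plexus and meninges and vascular lists (9 genes each) on the cortex arrays (left) and the ICR arrays (right). In the cortex, Ngfr is lowest at 1.5 months and the choroid plexus list is high only at 17 months. On the streptozotocin arrays, Ngfr (6.91 and 6.96) and the choroid plexus list (11.80 and 12.49) are low together.

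Among the responsive genes, Vgf and Nrn1 shared an order on the transgenic arrays, highest on NCSTN and lowest on 5×FAD. In the cortex and ICR sets, their orders differed. Vgf (chromosome 5, 137025301 to 137033351) encodes a secreted neuropeptide precursor that was named for its induction by nerve growth factor. Its log2 signal was 15.65, 15.40, 15.59, and 15.55 at 1.5, 4, 17, and 22 months. On the transgenic arrays, it was 15.05 on NCSTN, 14.73 on MAPT, and 14.02 on 5×FAD. The 5 ICR arrays lay between 14.48 and 14.63. All cortex arrays lay above all hippocampus arrays, with means of 15.55 and 14.57 (1.97-fold), and 9.98% of all genes did so. The 5×FAD array was the lowest of the 12, with a log2 ratio of −0.87, 2.05-fold below NCSTN, and the ratio was −1.01 to −0.87 over the settings.

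Nrn1 (chromosome 13, 36725622 to 36734477) encodes neuritin, a membrane-anchored protein that promotes the growth of neurites. Its log2 signal was 14.11, 13.89, 14.21, and 13.80 at 1.5, 4, 17, and 22 months. On the transgenic arrays, it was 13.81 on NCSTN, 13.52 on MAPT, and 12.82 on 5×FAD, and the ICR arrays lay between 13.17 and 13.49. Nrn1 was again lowest on 5×FAD of all 12 arrays, with a log2 ratio of −0.84 (−0.88 to −0.78 over the settings). Cortex and hippocampus met at 13.80 on the 22-month cortex and 13.81 on NCSTN, and they did not overlap with 75th percentile scaling or normexp. Across all genes on 5×FAD, the spread of log2 ratios (robust SD) was 0.52, and 5.27% were at least 2-fold lower.

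The same array had lower signals of other activity-regulated genes, from a list of 21 that leaves out Bdnf, Vgf, and Nrn1. On 5×FAD, 10 of 21 were at least 2-fold lower, none had a log2 ratio above 0, and the median was −0.99, against −0.05 over all genes. Under the 4 other scalings, 8 to 11 of 21 were at least 2-fold lower, and again none lay above 0. The largest differences were those of the synaptic gene Arc (−2.28), the transcription factor genes Egr4 (−1.85) and Fos (−1.83), the immediate early gene Ier2 (−1.77), and the phosphatase gene Dusp1 (−1.66). Vgf and Nrn1 lay within the range of this list, while Bdnf, at a log2 ratio of 0.25, lay above all of its members. Bdnf kept a value above 0 (0.24 to 0.33) in all settings that did not leave out an array.

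In the ICR hippocampus, the medians of the list lay closer to 0. With 2.5 mg/kg streptozotocin, 18 of 21 log2 ratios were above 0, with Arc (1.30) and Npas4 (1.29) past 2-fold, while Bdnf was at 0.14, Vgf at −0.07, and Nrn1 at 0.04. With 5 μM Aβ, 3 of 21 were above 0 (median −0.35), with Npas4 (−1.06) past 2-fold, while Bdnf was at −0.25, Nrn1 at −0.23, and Vgf at 0.00. With 10 μM Aβ, most of the list lay below 0, from −0.79 (Npas4) to 0.56 (Cort), while Bdnf was at 0.23, Vgf at 0.06, and Nrn1 at 0.04. With 3 mg/kg streptozotocin, the list ran from −0.58 (Npas4) to 0.30 (Nr4a2), while Bdnf was at −0.25, Nrn1 at −0.01, and Vgf at 0.10. With scopolamine, 18 of 21 were above 0 (median 0.21), with Npas4 (1.15) past 2-fold, while Bdnf was at 0.13, Nrn1 at 0.16, and Vgf at −0.09. Cell type lists differed on 5×FAD too: the microglia list (9 genes) was at 16.56 against 14.13 on both other arrays, the neocortex list had 0 of 11 log2 ratios above 0 (median −0.74), and the general neuron list (10 genes) was at 17.53 against 17.60 and 17.72. Their part in the values of Vgf and Nrn1 was not tested.

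**Figure D5:**
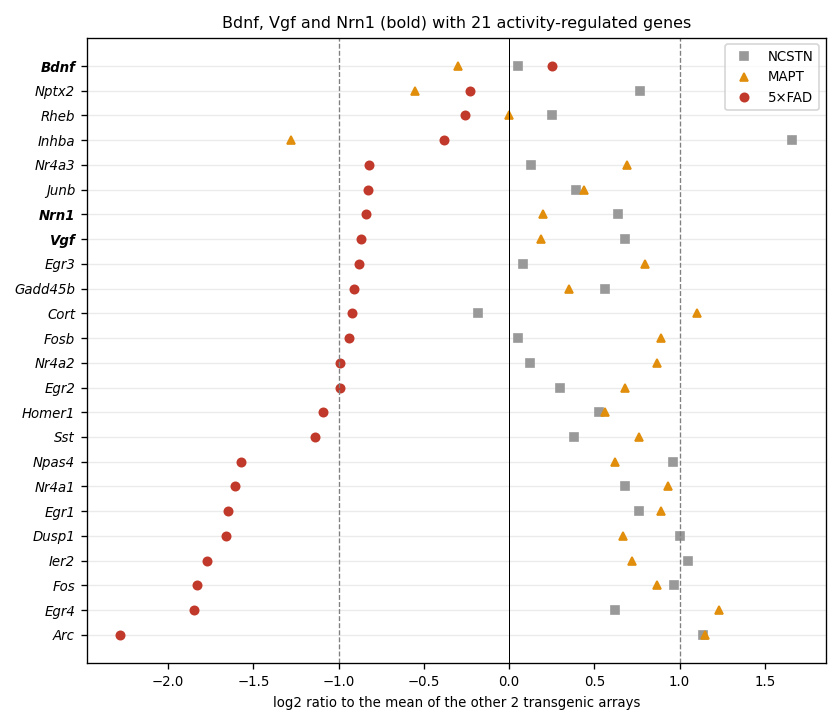
Log2 ratio of each transgenic array to the mean of the other 2 (x axis) for 21 activity-regulated genes with Bdnf, Vgf, and Nrn1 in bold (y axis, ordered by the 5×FAD value); dashed lines mark 2-fold. On 5×FAD, all genes but Bdnf (0.25) lie below 0, with Vgf at −0.87 and Nrn1 at −0.84 among them.

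Promoter sequences are shown because Bdnf parted from these genes, several of which are classical targets of the transcription factor CREB. RefSeq windows on GRCm38.p6, from 250 bases before to 50 bases after each transcription start, were read for 5 of the 8 genes (Bdnf, Ntf3, Gdnf, Ntrk2, and Ngfr) and 16 of the 21 activity-regulated genes. They were searched on both strands for the CREB motif TGACGTNA, which contains the full palindrome TGACGTCA as one of its forms. It was found in 1 of the 5 genes, Bdnf, in 1 of its 7 windows, and in 4 of the 16. Over all genes, 908 of 27025 had the motif in a window, and over all 32851 windows 2.93% held it. The 300-base Bdnf window with the match, chr2:109692186-109692485 on the plus strand, reads as follows, with the match in capitals, and is followed by 30 bases around each match in Bdnf and the 4 activity-regulated genes, each on the strand of its gene.
Bdnf window: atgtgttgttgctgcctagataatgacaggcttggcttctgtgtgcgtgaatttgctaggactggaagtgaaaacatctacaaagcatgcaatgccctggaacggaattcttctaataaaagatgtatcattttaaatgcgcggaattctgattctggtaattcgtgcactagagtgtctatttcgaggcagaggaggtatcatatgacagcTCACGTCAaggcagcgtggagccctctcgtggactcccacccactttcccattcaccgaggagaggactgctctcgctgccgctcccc
Bdnf, chr2:109692387-109692416 (+): catatgacagcTCACGTCAaggcagcgtgg
Egr4, chr6:85513683-85513712 (−): tgtttggtcatTTACGTCAcggcgccaggg
Homer1, chr13:93303690-93303719 (+): cccgcacaagcTGACGTGAgcggagggtga
Sst, chr16:23890874-23890903 (−): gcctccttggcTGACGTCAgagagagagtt
Dusp1, chr17:26508597-26508626 (−): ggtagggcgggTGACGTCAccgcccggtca
On 5×FAD, the 4 activity-regulated genes with a match had log2 ratios of −1.85 (Egr4), −1.09 (Homer1), −1.14 (Sst), and −1.66 (Dusp1), and Bdnf had 0.25. The activity-regulated genes with windows but no match had log2 ratios from −1.83 (Fos) to −0.26 (Rheb). The shorter sequence TGACG, the start of the motif, was searched as well. It was found in 14 of the 16 activity-regulated genes, Fos among them, and in 2 of the 5 genes. Over all genes, 6228 of 27025 had it. Vgf and Nrn1 had no window and could not be set against Bdnf here. The part of the motif in these values was not tested. A match describes these letters in the window and is not a measured binding site.

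The other genes of the pathway passed 2-fold in a smaller share of pairs than all genes did. A total of 6 lists with 102 genes covered the remaining neurotrophins and Trk, the GDNF family, processing and sorting of the precursors, partners of p75, adaptors and effectors of Trk, and other neurotrophic factors. Of these genes, 97 were measured in the cortex, 100 in the transgenic hippocampus, and 98 in the ICR hippocampus. In the cortex, 4 of 388 pairs of gene and array were at least 2-fold higher and 1 lower (1.29%, against 3.55% over all genes). In the transgenic hippocampus, 7 of 300 were higher and 8 lower (5% against 7.7%), and in the ICR hippocampus 6 of 490 were higher and 5 lower (2.24% against 5.43%). The 43 Trk adaptors and effectors held 1 of these calls, Pik3ca, the catalytic subunit of a lipid kinase, at −1.53 on 5×FAD. Their median log2 ratio on that array was −0.21, against −0.05 over all genes. All genes include dim ones. Among all genes, 11.6% (cortex), 18.2% (transgenic), and 17.6% (ICR) had a highest array at least 2-fold over the lowest. Among genes well above background on every array of the set, these shares were 6.21%, 13.7%, and 9.35%. The lists were not set against such brighter genes.

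Ntf5, the gene of NT-4 and the other ligand of TrkB, was dim. In the cortex it was at 4.96 to 5.41 (log2 signal), and it was 6.21 on NCSTN, 5.27 on MAPT, and 5.14 on 5×FAD. On ICR, it was 6.15 and 6.55 with 5 and 10 μM Aβ, 4.50 (not well above background) and 4.97 with 2.5 and 3 mg/kg streptozotocin, and 6.58 with scopolamine. The streptozotocin arrays were thus the lowest of the ICR set for Ntf5 as they were for Ngfr, an order that 15.9% of genes had. The value with 2.5 mg/kg was at least 2.8-fold below the average of the other 4 ICR arrays, of which 3 mg/kg was the nearest.

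Of the genes for processing and sorting of the precursors, Furin, a protease that cuts them inside the cell, had log2 signals of 9.26 to 10.31 on the 12 arrays. Sort1, which encodes the sorting receptor sortilin, had 9.18 to 9.82. Neither passed 2-fold on any array. Others of the 19 genes did, and they are not reported here by name. The list had 1 gene at least 2-fold higher at 1.5 months, on 5×FAD, and with 5 and with 10 μM Aβ. It had 1 gene at least 2-fold lower at 4 months, on MAPT, with 2.5 mg/kg streptozotocin, and with scopolamine. These calls are part of the pathway counts above, which stand beside the shares over all genes.

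Of the p75 partners, Lingo1, a coreceptor that joins p75 and the Nogo receptor, was lower on 5×FAD. The log2 signal was 6.09 there, 8.89 on NCSTN, 9.14 on MAPT, and 8.01 to 9.77 on the other arrays, a log2 ratio of −2.92 (7.59-fold). Lingo1 had 1 probe. Arhgdia was at 12.18 at 17 months against 10.31 to 10.39 at the other ages. In all, 9 of the 11 partners had log2 ratios above 0 at 17 months (median 0.41), the array with the high choroid plexus list. Ripk2 was dim, at 5.17 with 2.5 mg/kg streptozotocin, and it was well above background on 1 of the other 4 ICR arrays (4.39 with 5 μM Aβ).

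Among other neurotrophic factors, 5×FAD had 2 genes at least 2-fold higher and 3 lower of 17. Igf1 was at 8.43 against 6.42 on NCSTN and 6.37 on MAPT (log2 ratio 2.03), and Cntf was at 9.60 against 7.90 and 7.73 (1.79). In the opposite direction, Vegfa was at 8.42 against 9.55 and 9.54 (−1.12), and Cntfr, the receptor subunit for CNTF, was at 9.68 against 10.52 and 11.06 (−1.11). Igf1 and Cntf are known from microglia and astrocytes, whose lists were high on the same array, and the part of these cells was not tested. Lif was dim, and its call with 3 mg/kg streptozotocin (6.33) was at least 4.02-fold. In the GDNF family, Pspn with 10 μM Aβ (5.18, at least 1.86-fold) and Gfra3 at 17 months (5.00, at least 1.78-fold) were the calls, and each was well above background on that array alone within its set.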

How the data were processed

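The 12 one-colour Agilent mouse arrays were analysed, with 1 array for each condition. The authors deposited the scanner's spot intensity values (processed signal, background, and flags) and a series matrix of normalized intensities on a linear scale, in which the ICR arrays and 5×FAD have distributions of their own. The latter served, after log2, as an alternative within sets. Spots flagged as outliers (110 to 234 of 43020) were left out. The log2 processed signal was averaged for each probe and quantile normalized over the 12 arrays. Accessions were matched to RefSeq symbols (GRCm38.p6) for 27508 of 39429 probes (69.8%), and probes of a gene were averaged. Between 64.3% and 76.4% of spots were well above background, and none was saturated. With 1 array for each group, the number of arrays limits the precision and no test was run. Calls were log2 ratios of at least 1 in size; where the dim side was not well above background, the fold is a bound against the lowest signal that was. Named genes were the 8 genes, listed genes past 2-fold (at most 5 for each array), markers, and the 3 genes most like Bdnf, Vgf, Nrn1, and Ntf3. Some listed genes are counted but not reported here by name. The genes and lists were chosen with earlier results of these data known. Alternatives were 75th percentile scaling, quantile normalization within sets, normexp (limma 3.58.1, offset 50, on the median signal), the series matrix, a filter of 1.4-fold above background on all arrays (passed by all 13 probes of the 8 genes), the flag filter, the brightest probe, a median reference, thresholds of 1.5-fold and 3-fold, and leaving out each array. Scripts ran in Python 3.11.15 and R 4.3.3 and were tested on simulated data.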

Additional observations from a re-analysis of the deposited data

How the results depend on the processing

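No paired analysis was possible because each group has 1 array. No call of the 8 genes changed direction. Of their log2 ratios, 678 of 696 moved by less than the robust SD over all genes of the same array when another setting was used, and 248 of 272 did so when an array was left out. The 678 include values that could not move. The flag filter kept every probe of these genes where they were measured, and the brightest probe leaves a gene with 1 probe unchanged. In the transgenic set, the median of the 2 other arrays is their mean. For the 8 genes, the 2 calls in the cortex became 0 with normexp and 0 at 3-fold. The 0 calls in the transgenic hippocampus became 1 with 75th percentile scaling, 1 with normexp, 1 in the series matrix, and 7 at 1.5-fold. Leaving out an array gave 0 to 3 calls in the cortex, 0 to 2 in the transgenic set, and 0 in the ICR set. In the transgenic set, the 2 arrays left mirror each other, so that each difference counts from both sides. For the pathway lists, the 5, 15, and 11 calls in the cortex, transgenic, and ICR sets became 0, 8, and 2 with normexp, 19, 39, and 31 at 1.5-fold, and 2, 8, and 6 at 3-fold. The cortex had 3 with a median reference and the ICR set 5 in the series matrix. Leaving out an array gave 4 to 5, 2 to 22, and 9 to 16 calls, and the 2 came without 5×FAD. With normexp, calls over all genes were fewer too (0.249%, 1.68%, and 0.925% of pairs). In the series matrix, the median log2 ratio of all genes was 0.25 with 2.5 mg/kg streptozotocin and −0.23 with scopolamine. The cause of the other shifts was not tested. The order of arrays between sets and the activity-regulated list under other scalings were looked at after seeing the data. Dim probes (Gdnf, Ntf5, Lif, and Pspn) allow only bounds.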

Other observations

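For 4 of the genes, the genes with the most similar pattern were sought among 14020 genes that were well above background on all arrays, by Pearson's r of log2 signals centred within each set over the 12 arrays. These are descriptions, since the arrays share their normalization and 5×FAD sets much of the variation. For Vgf they were Fjx1 (r = 0.98), Hcfc2 (0.97), and Gng13 (0.97), and for Nrn1 they were Becn1 (0.97), Csnk1g2 (0.96), and Mir22hg (0.96). On 5×FAD, these 6 genes had log2 ratios between −1.43 (Hcfc2) and −0.53 (Becn1). For Ntf3, Shisa2 (0.88), Tspan18 (0.86), and Mrpl11 (0.85) came closest. Shisa2 and Tspan18 were higher at 22 months as well, at log2 ratios of 0.79 and 0.73, and Tspan18 was at 0.92 on MAPT. For Bdnf, the values were lower, with Gramd1c (0.89), Car15 (0.84), and Dnaaf5 (0.83).

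Gfra2, the coreceptor gene for neurturin, was chosen after its values were seen. It lay at log2 signals of 13.95, 14.00, 14.25, and 14.06 at 1.5, 4, 17, and 22 months and at 11.35 (5×FAD) to 12.35 (2.5 mg/kg streptozotocin) on the 8 hippocampus arrays. Cortex and hippocampus were thus separated for Gfra2 in the direction opposite to Ntf3. Over all genes, 9.98% had the cortex arrays above the hippocampus arrays without overlap.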
